A study of Mus musculus with 46 samples.

Results

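The NRF2 antioxidant response genes were followed as 10 named rows, Nfe2l2, Keap1, Nqo1, Hmox1, Gclc, Gclm, Gsr, Txnrd1, Srxn1 and Prdx1, out of the 55774 rows of 3 tables and the 56775 rows of the conventional hairpin table. They were taken by gene symbol, and all 10 were listed in each of the 4 tables. The RNA came from cultured mouse hepatocytes of the AML12 line (27 libraries) and from livers of mice (19 libraries). The series asked how the long noncoding RNA Falcor (9030622O22Rik) acts on gene expression, and whether it shares targets with ZC3H11A, a zinc finger protein linked to mRNA export. In 1 AML12 experiment a conventional hairpin was expressed against Falcor (shFalcor) or against ZC3H11A (shZC3H11A), or a control hairpin was used (shCtrl), with 3 libraries each. In another, AML12 lines with a doxycycline-inducible hairpin, labelled shLinc and taken as the Falcor hairpin, or with its control shCtrl, were sampled untreated (NoDox), with doxycycline (Dox) and in a restored state (labelled DoxMinus), with 3 libraries in each of 6 groups. Livers were Falcor knockout (KO) or control, with 4 KO and 4 control livers on the diet labelled NCD and 6 KO and 5 control livers on the diet labelled HFD. Mouse strain, age, sex, the design of the knockout allele, doxycycline dose and the content of the diets are not given in the labels, nor is whether a hairpin line is a clone or a pool.

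NRF2, encoded by Nfe2l2, is a transcription factor that KEAP1 holds in the cytoplasm and delivers to a CUL3 ubiquitin ligase for degradation. Oxidants and electrophiles modify KEAP1, after which NRF2 accumulates, pairs with small MAF proteins and binds antioxidant response elements near genes for glutathione synthesis, thioredoxin recycling and detoxification. In liver the pathway is known for handling reactive drug metabolites and lipid peroxides, and much of its control is on the NRF2 protein, which these RNA values do not show.

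The core of the antioxidant response element, TGACNNNGC (GCNNNGTCA on the other strand), was looked for on both strands in the 250 bases before each start site of RefSeq's promoter windows (GRCm38.p6), of which a gene can have several. At least 1 window held it in 4 of the 7 members with a window, Nfe2l2, Gclm, Prdx1 and Txnrd1, against 3112 of all 27025 genes (11.5%), and it was in 10.2% of all 32851 windows. Txnrd1 has 3 windows: the one at the gene's first start does not hold the motif, and the one shown belongs to a start inside the gene. The stretches around each match are shown because Gclm and Nfe2l2 carry the results below; capitals mark the motif, and each is written 5′ to 3′ on the gene's own strand. Whole-gene positions given further on are mm10 coordinates of GENCODE M21, where all 10 members are protein-coding. The Nfe2l2 stretch is chr2:75704855-75704913 (minus strand), the Gclm stretch chr3:122245383-122245471, the Prdx1 stretch chr4:116685426-116685514 and the Txnrd1 stretch chr10:82859074-82859162 (all plus strand). A match describes these letters only.
Nfe2l2: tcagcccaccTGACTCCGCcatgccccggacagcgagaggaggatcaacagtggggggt
Gclm: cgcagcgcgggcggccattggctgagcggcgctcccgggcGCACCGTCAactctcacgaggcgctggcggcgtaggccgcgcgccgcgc
Prdx1: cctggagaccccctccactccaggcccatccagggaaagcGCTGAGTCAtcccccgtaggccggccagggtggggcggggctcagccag
Txnrd1: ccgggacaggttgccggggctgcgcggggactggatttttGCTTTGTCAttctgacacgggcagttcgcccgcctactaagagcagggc

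The conventional table held 4474760 to 8837581 counts per library; the other 3 tables hold rounded values of unknown depth, printed here as scaled values. Falcor was listed at 0 in all 10 KO livers. It was called lower under shFalcor (log2 fold change -2.07 ± 0.51 SE, edgeR adjusted p = 0.00242), under shZC3H11A (-2.17 ± 0.52, adjusted p = 0.00226) and under doxycycline in shLinc against shCtrl (-0.80 ± 0.14, limma adjusted p = 1.43e-04), but higher in shLinc than in shCtrl before doxycycline (0.77 ± 0.14). These calls rest on values near the floor. Falcor held 7, 4 and 5 counts under shFalcor and 4, 3 and 6 under shZC3H11A, against 38, 11 and 24 in shCtrl. With doxycycline its rounded values were 2, 2 and 3 in shLinc, against 5, 4 and 5 in shCtrl. Zc3h11a was at 4.59, 14.1 and 5.995 CPM under shZC3H11A (log2 fold change -3.03 ± 0.29, edgeR adjusted p = 2.03e-05) and at 38.9, 32.4 and 41.1 CPM under shFalcor (-0.75 ± 0.24, adjusted p = 0.0243), against 64.6, 67.4 and 58.8 CPM in shCtrl, so both targets were lower under both hairpins. AML12 libraries carried 5 of 6 hepatocyte markers in the inducible table and all 6 in the conventional one, Cps1 being at 0 in the inducible table, and no endothelial marker was above 0 there. They carried cholangiocyte markers too. In untreated shCtrl the 4 on the list summed to 1137 to 1317, against 515 to 588 for hepatocyte markers. In conventional shCtrl the sums were 679 to 764 CPM, against 338 to 385 CPM. In restored shLinc the order was reversed (938 to 952, against 1379 to 1417). Untreated shCtrl replicate 1 and HFD KO replicate 6 stood apart from their groups, with scale factors of 0.888 and 0.411. No label states that replicates came from separate cultures or mice, so the p-values rest on library-to-library spread, which could be technical.

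Under conventional knockdown of Falcor the glutathione genes of the set were lower and Hmox1 was higher. Under shFalcor, 9 of the 9 tested members were called, 7 lower and 2 higher, where 51.5% of all 11871 tested genes were called (edgeR quasi-likelihood test, Benjamini-Hochberg adjusted p below 0.05). Under shZC3H11A, 7 of 9 were called, 6 lower and 1 higher, where 48.5% of all genes were. Both knockdowns were set against the same 3 shCtrl libraries. The median log2 fold change of the 9 members was -0.58 under shFalcor and -0.33 under shZC3H11A, and that of all tested genes was 0.00 in both.

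Gclm (ENSMUSG00000028124.15, chr3:122245557-122270732) encodes the modifier subunit of glutamate-cysteine ligase, which sets the pace of glutathione synthesis. Its level was 20.4, 15.7 and 19.3 CPM (a library's counts scaled to a common total) in shFalcor libraries and 76.4, 76.6 and 71.6 CPM in shZC3H11A libraries, against 131, 113 and 118 CPM in shCtrl libraries. The 3 groups did not overlap, and shFalcor was the lowest. The log2 fold change was -2.70 ± 0.10 (SE, edgeR adjusted p = 1.19e-12) for shFalcor and -0.69 ± 0.09 (adjusted p = 5.32e-06) for shZC3H11A, and the knockdowns differed from each other by -2.005 ± 0.11 (shFalcor over shZC3H11A, adjusted p = 3.23e-11). The whole-gene span of Gclm overlaps that of a same-strand gene model, Gm6061, and the spans of Nfe2l2 and Gsr overlap Gm24996 and Gm24727. Whether they share exons, and so reads, was not looked at.

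Gclc (ENSMUSG00000032350.9, chr9:77754535-77794485), which encodes the catalytic subunit of the same enzyme, followed the same order. It was at 520, 481 and 523 CPM in shFalcor libraries and at 987, 954 and 1063 CPM in shZC3H11A libraries, against 1344, 1281 and 1233 CPM in shCtrl libraries. Again no group overlapped another, and the log2 fold changes were -1.34 ± 0.06 (edgeR adjusted p = 9.15e-12) and -0.36 ± 0.06 (adjusted p = 7.10e-05). The ratio of Gclm to Gclc, chosen after these values were seen, was 0.0362 ± 0.0033 in shFalcor libraries and 0.0750 ± 0.0068 in shZC3H11A libraries, against 0.0939 ± 0.0048 in shCtrl libraries (SD, n = 3 each, no test). Gsr (ENSMUSG00000031584.16, chr8:33652523-33698163), whose product, glutathione reductase, regenerates reduced glutathione, was at 249.8 ± 9.32 CPM under shFalcor and 300.2 ± 9.42 CPM under shZC3H11A, against 374 ± 6.25 CPM in shCtrl (log2 fold change -0.58 and -0.32).

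Hmox1 (ENSMUSG00000005413.8, chr8:75093621-75100589) encodes heme oxygenase 1, which breaks heme down to biliverdin, iron and carbon monoxide. It was at 296, 259 and 282 CPM in shFalcor libraries and 48.0, 40.2 and 46.7 CPM in shZC3H11A libraries, against 99.3, 97.2 and 99.98 CPM in shCtrl libraries. The knockdowns therefore lay on opposite sides of the control, with no overlap. The log2 fold change was 1.498 ± 0.07 (edgeR adjusted p = 2.04e-11) under shFalcor and -1.13 ± 0.08 (adjusted p = 3.47e-09) under shZC3H11A.

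Srxn1 (ENSMUSG00000032802.8, chr2:152105516-152111376), which encodes sulfiredoxin, the enzyme that repairs overoxidised peroxiredoxins, went the other way. It was at 61.5, 64.8 and 61.7 CPM in shFalcor libraries and at 310.4, 289 and 388 CPM in shZC3H11A libraries, against 108, 92.5 and 98.0 CPM in shCtrl libraries. It was below every control library in shFalcor and above every control library in shZC3H11A, with log2 fold changes of -0.67 ± 0.10 (edgeR adjusted p = 4.92e-05) and 1.72 ± 0.10 (adjusted p = 7.67e-10). Set against each other, the knockdowns differed in 9 of 9 tested members, where 56.9% of all genes were called (shFalcor over shZC3H11A). Of these, 3 were higher in shFalcor, Hmox1 by 2.63 ± 0.08, Txnrd1 by 0.31 ± 0.06 and Prdx1 by 0.27 ± 0.06 on the log2 scale. The smallest of the 6 lower ones, Nfe2l2 (-0.20 ± 0.08, adjusted p = 0.0292), lost its call when shFalcor replicate 1, shFalcor replicate 2 or shZC3H11A replicate 1 was left out. Its call was also lost with no filter on low counts (-0.17, edgeR adjusted p = 0.120).

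Both regulators fell under shFalcor, and Nfe2l2 also under shZC3H11A. Nfe2l2 (ENSMUSG00000015839.6, chr2:75675513-75704641) was at 171 ± 17.7 CPM under shFalcor and 197 ± 6.87 CPM under shZC3H11A, against 248 ± 16.4 CPM in shCtrl (SD, n = 3 each), log2 fold changes of -0.54 ± 0.07 and -0.33 ± 0.07. Keap1 (ENSMUSG00000003308.15, chr9:21229730-21239361) was at 24.2 ± 1.78 CPM under shFalcor (-0.85 ± 0.13, edgeR adjusted p = 3.50e-05) and 36.7 ± 6.51 CPM under shZC3H11A (-0.26 ± 0.13, adjusted p = 0.106; called at -0.41 without shZC3H11A replicate 3), against 43.9 ± 4.59 CPM in shCtrl. Of the remaining thiol genes, Prdx1 (ENSMUSG00000028691.12, chr4:116685544-116700822), which encodes a peroxide-reducing peroxiredoxin, fell by 0.27 under shFalcor and by 0.54 under shZC3H11A. Txnrd1 (ENSMUSG00000020250.10, chr10:82833951-82897712), which encodes cytosolic thioredoxin reductase, was higher under shFalcor (590 ± 20.9 CPM, against 473 ± 25.3 CPM in shCtrl, log2 fold change 0.32 ± 0.06) and was at 477 ± 32.9 CPM under shZC3H11A (adjusted p = 0.887). The span of Txnrd1 overlaps that of the same-strand gene Eid3, and shared exons were not looked at here either. Nqo1 (ENSMUSG00000003849.8, chr8:107388225-107403206), the quinone reductase often used as an NRF2 readout, held only 1 to 8 counts per library in this table and was too low to test in any of the 4.

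**Figure D1:**
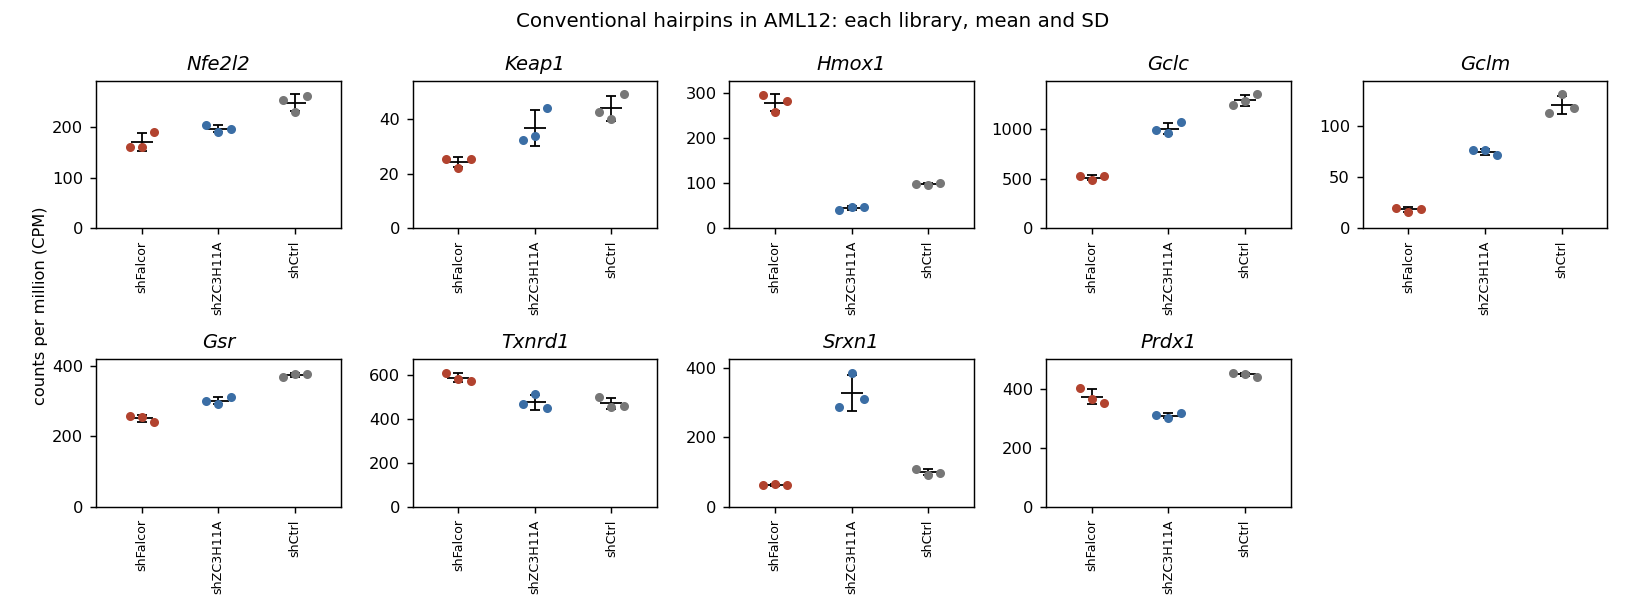
Expression of 9 members in AML12 cells with conventional hairpins, in CPM on a linear axis from 0; points are the 3 libraries of shFalcor, shZC3H11A and shCtrl, and bars give the mean and SD. Gclm is lowest in shFalcor (mean 18.5 CPM, against 121 CPM in shCtrl), while Hmox1 is highest in shFalcor and Srxn1 in shZC3H11A; Nqo1 is left out because it held at most 8 counts.

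Of 50 further genes tied to NRF2, glutathione, peroxide or heme handling, 48 were tested in the conventional table. Under shFalcor 14 were higher and 19 lower, where 51.5% of all genes were called, and under shZC3H11A 10 were higher and 23 lower, where 48.5% were. The list's median log2 fold change was -0.07 under shFalcor and -0.26 under shZC3H11A, beside 0.00 for all genes in both. Its 15 genes of glutathione supply and use did not follow Gclm and Gclc under shFalcor, where 7 were higher and 4 lower (median log2 fold change 0.17). Under shZC3H11A 3 were higher and 7 lower (median -0.17), the side on which Gclm and Gclc lay. Among them Gstm1, a glutathione transferase gene, was at 299 CPM under shFalcor and 137 CPM under shZC3H11A, against 597 CPM in shCtrl, log2 fold changes of -0.995 ± 0.06 and -2.12 ± 0.06. Maff, which encodes a small MAF partner of NRF2, fell by 1.28 under shFalcor, and Fech, which encodes the last enzyme of heme synthesis, fell by 2.84 under shZC3H11A. Abcc2, a canalicular exporter of conjugates, rose under shFalcor (log2 fold change 1.97 ± 0.12), whereas the related exporter gene Abcc3 fell (-0.93 ± 0.07).

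Some cell type marker sums also differed between the conventional groups, while that of the 4 cholangiocyte markers overlapped between shFalcor (708 to 763 CPM) and shCtrl (679 to 764 CPM). The summed level of the 6 hepatocyte markers was 71.7 to 81.7 CPM in shFalcor libraries and 419 to 635 CPM in shZC3H11A libraries, against 338 to 385 CPM in shCtrl libraries. The summed level of 7 Kupffer cell and macrophage markers was 47.9 to 50.6 CPM in shFalcor libraries and 5.27 to 8.83 CPM in shZC3H11A libraries, against 3.44 to 5.33 CPM in shCtrl libraries. Nearly all of the shFalcor sum was Cd68, at 47.2 to 50.3 CPM, and Adgre1, Clec4f, Cd5l, Vsig4 and Marco were at 0. The part of these shifts in the members' values was not tested. In bulk RNA, fewer cells of a type and less RNA per cell cannot be told apart.

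Under doxycycline the members were again mostly lower in the Falcor hairpin line, by smaller amounts. With doxycycline, 8 of the 9 tested members were called in shLinc against shCtrl, 7 lower and 1 higher, where 52% of all 9877 tested genes were called (limma, log2(value + 1) scale, Benjamini-Hochberg adjusted p below 0.05). Without doxycycline 6 of 9 were called, 3 in each direction, where 65.5% of all genes were called, and in the restored state 6 of 9, again 3 in each direction, where 58.1% were; neither share is far from that of all genes. The median log2 fold change of the members was -0.30 with doxycycline, 0.05 without it and 0.04 in the restored state, and that of all genes -0.02, 0.00 and 0.01. Fold changes on this scale understate the change of low genes. The 3 hairpin comparisons and those between states use the same 18 libraries in 1 fit.

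Gsr showed the pattern most plainly. With doxycycline it was at 220.1, 215 and 225 in shLinc libraries, against 326, 339 and 341 in shCtrl libraries (scaled values), and no library overlapped. Untreated, it was at 337, 334 and 330 in shLinc libraries, against 352, 316 and 301 in shCtrl libraries, where the groups overlapped. Restored, it was at 316, 311 and 319 in shLinc libraries, against 305, 294 and 285 in shCtrl libraries, where the groups did not overlap. The hairpin difference was 0.05 ± 0.05 untreated (not called, but 0.11 and called without shCtrl replicate 1), -0.61 ± 0.05 with doxycycline (limma adjusted p = 1.84e-08) and 0.10 ± 0.05 restored (adjusted p = 0.0841). The restored difference was called with no rescaling (0.23), median-of-ratios factors (0.11), only the groups compared fitted (0.09) and the transcript length trend removed (0.16). The untreated one was also called with no rescaling (0.23) and with the length trend removed (0.12). The change of the hairpin difference between the doxycycline and the untreated state was -0.65 ± 0.07 (limma adjusted p = 2.25e-07).

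Gclc and Gclm turned over with doxycycline. Gclc was at 215, 219.5 and 219.7 in shLinc libraries with doxycycline, against 311, 313 and 313 in shCtrl libraries, while untreated it was at 293, 291 and 289 in shLinc libraries, against 245, 270.4 and 267 in shCtrl libraries. Its hairpin difference was 0.16 ± 0.03 untreated, -0.52 ± 0.03 with doxycycline (limma adjusted p = 3.31e-09) and 0.13 ± 0.03 restored. Gclm was at 78.6, 78.1 and 77.1 in shLinc libraries with doxycycline, against 95.8, 92.3 and 101 in shCtrl libraries, and untreated at 112, 119 and 118 in shLinc libraries, against 86.7, 85.9 and 87.7 in shCtrl libraries. Its hairpin difference was 0.42 ± 0.05 untreated, -0.30 ± 0.05 with doxycycline and 0.46 ± 0.05 restored, so both genes were above the control line in the states without doxycycline and below it with doxycycline, and in each state the groups did not overlap. The Gclm to Gclc ratio was 0.357 ± 0.008 in shLinc with doxycycline, against 0.308 ± 0.014 in shCtrl.

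The peroxide genes Srxn1 and Prdx1 were also lower in shLinc than in shCtrl with doxycycline. Srxn1 was at 26.9, 28.1 and 29.1 untreated, 27.2, 28.5 and 26.0 with doxycycline and 26.0, 25.3 and 25.0 restored in shLinc libraries, against 25.9, 26.6 and 26.9 untreated, 37.2, 36.1 and 36.1 with doxycycline and 30.6, 30.7 and 29.6 restored in shCtrl libraries. Its hairpin difference with doxycycline was -0.41 ± 0.04 (limma adjusted p = 5.32e-07). Prdx1 was at 534, 545 and 545 in shLinc libraries with doxycycline, against 733, 719 and 743 in shCtrl libraries (-0.43 ± 0.07). Untreated, Prdx1 ranged over 599.9 to 648 in shLinc libraries, against 624.5, 650.3 and 807 in shCtrl libraries. That untreated call (-0.16 ± 0.07, adjusted p = 0.0476) was lost without shCtrl replicate 1, the library with 807, or shLinc replicate 1 or 2, and had the other sign with no rescaling between libraries (0.02).

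Hmox1 and Txnrd1 differed between the lines before doxycycline. Hmox1 was at 94.4 ± 3.52 untreated, 74.8 ± 1.11 with doxycycline and 86.2 ± 0.891 restored in shLinc, against 122 ± 6.49, 89.6 ± 2.58 and 87.1 ± 1.63 in shCtrl in the same order of states (SD, n = 3 each). Its hairpin difference was -0.37 ± 0.04 untreated, -0.26 ± 0.04 with doxycycline and -0.01 ± 0.04 restored, and the last was 0.12 with no rescaling and 0.13 with the transcript length trend removed. The untreated and doxycycline differences did not differ past the threshold (0.11 ± 0.06, limma adjusted p = 0.0886), but did with median-of-ratios factors (0.15, adjusted p = 0.0149) and without untreated shCtrl replicate 2 (0.16, adjusted p = 0.0150). It was negative, and not called, with no rescaling and with the length trend removed. Txnrd1 was at 102 ± 2.42, 174 ± 3.66 and 113 ± 2.17 in shLinc, against 124 ± 9.76, 182 ± 2.03 and 137 ± 2.14 in shCtrl, over the same states, and its hairpin difference was -0.27 ± 0.04 untreated, -0.07 ± 0.04 with doxycycline (adjusted p = 0.214) and -0.28 ± 0.04 restored. With no rescaling the untreated and restored differences of Txnrd1 were -0.09 and -0.15 and were not called.

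Among the regulators the differences were small. Nfe2l2 was higher in shLinc than in shCtrl in each state, by 0.24 ± 0.04 untreated, 0.09 ± 0.04 with doxycycline (limma adjusted p = 0.0492) and 0.26 ± 0.04 restored. Keap1 was called lower with doxycycline (29.0 ± 0.643 in shLinc, against 31.5 ± 1.59 in shCtrl, -0.12 ± 0.04, adjusted p = 0.0354) and in the restored state (-0.17 ± 0.04; -0.04 and not called with no rescaling). Both doxycycline calls lay next to the threshold: Nfe2l2 lost its call without shCtrl replicate 1 or 2 or shLinc replicate 1 or 3, and Keap1 without shCtrl replicate 2 or 3 or shLinc replicate 1 or 3. Both were also lost with no filter on low values and with no rescaling. Nfe2l2 further lost its call with a replicate block in the fit. Keap1 further lost its call with median-of-ratios factors and with only the groups compared fitted.

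**Figure D2:**
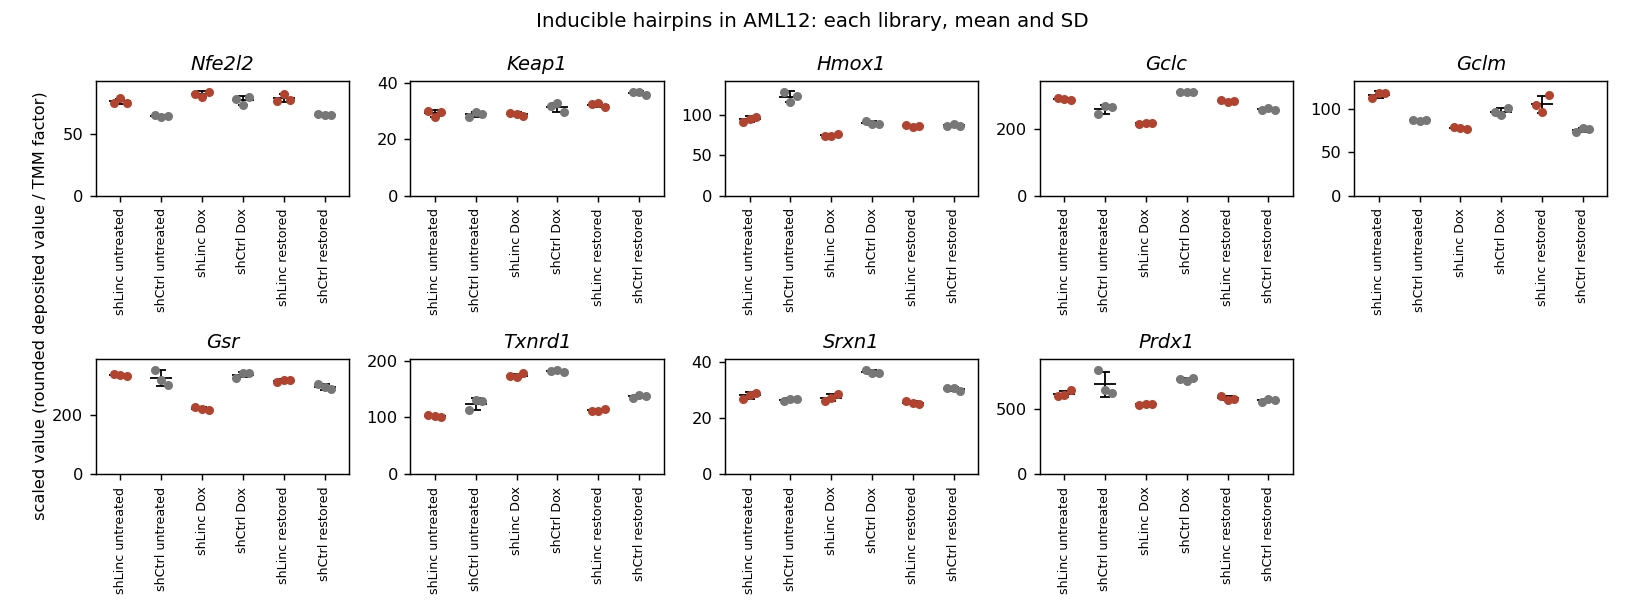
Scaled values of 9 members in the inducible AML12 lines on a linear axis from 0, with shLinc left of shCtrl in each of the untreated, doxycycline and restored states; points are the 3 libraries of a group and bars give the mean and SD. Gsr and Gclc in shLinc are lowest with doxycycline, where Gsr is 220.1 against 335 in shCtrl.

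The difference of the hairpin effects between states, which sets aside what separated the lines before doxycycline, was called for 7 of 9 members between doxycycline and untreated, 6 lower and 1 higher, where 64.6% of all genes were called. The hairpin difference was lower with doxycycline than untreated for Gclm (-0.72 ± 0.07), Gclc (-0.67 ± 0.05), Gsr, Srxn1 (-0.49 ± 0.06), Prdx1 (-0.28 ± 0.09) and Nfe2l2 (-0.14 ± 0.05). Nfe2l2 lost its call with median-of-ratios factors (-0.10) and without untreated shCtrl replicate 2, doxycycline shCtrl replicate 1 or 3, or doxycycline shLinc replicate 2. For Txnrd1 it was higher (0.20 ± 0.06), but not called with no rescaling (0.04) or without untreated shLinc replicate 3. A lower difference need not be a fall of the gene in shLinc. Srxn1 was at 28.0 untreated and 27.3 with doxycycline in shLinc, and at 26.5 and 36.5 in shCtrl. Nfe2l2 was higher in shLinc than in shCtrl in both states. Between doxycycline and the restored state 8 of 9 were called, 7 lower and 1 higher, where 60.1% of all genes were called. Of these, Txnrd1 (0.21 ± 0.06) was 0.10 and not called with no rescaling, and Srxn1 (-0.17 ± 0.06) lost its call with median-of-ratios factors and in 4 of 12 fits without 1 library. Between the 2 states without doxycycline 3 of 9 were called, 1 higher and 2 lower, where 19.9% of all genes were. These were Hmox1 (0.36 ± 0.06), Srxn1 (-0.32 ± 0.06) and Keap1 (-0.19 ± 0.06), and Keap1 lost its call in 9 of 12 fits that left out 1 library. The count was then as low as 2 of 9, for example without untreated shCtrl replicate 1, and stayed at 3 without untreated shCtrl replicate 3, where Prdx1 was called (0.27).

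**Figure D3:**
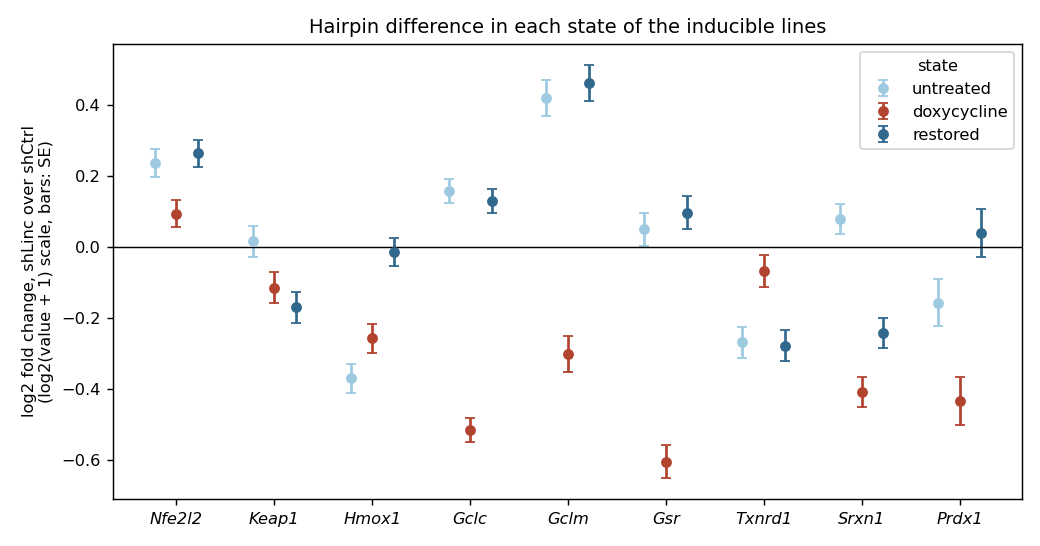
Log2 fold change of shLinc over shCtrl in the inducible lines for 9 members, untreated, with doxycycline and restored; points are limma estimates on the log2(value + 1) scale and bars are SE. Gclc, Gclm and Gsr lie at or above 0 in the states without doxycycline and at -0.52, -0.30 and -0.61 with it, while the untreated Prdx1 point and the restored Hmox1 point change sign with no rescaling (0.02 and 0.12).

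Within a line, 7 of 9 members were called between doxycycline and untreated in shLinc, 2 higher and 5 lower, where 74% of all genes were called. In shCtrl 7 of 9 were called, 6 higher and 1 lower, where 66.3% of all genes were. Neither share is far from that of all genes. In shLinc Gsr fell by 0.60, Gclm by 0.57, Gclc by 0.41, Hmox1 by 0.33 and Prdx1 by 0.19. In shCtrl Gclc (0.26 ± 0.03), Srxn1 (0.45 ± 0.04), Nfe2l2 (0.25 ± 0.04), Keap1 (0.12 ± 0.04) and Gclm (0.15 ± 0.05) rose, and Gclm was at -0.07 with the transcript length trend removed. The Keap1 and Gclm calls in shCtrl were also lost with no rescaling (0.08 and 0.11), with median-of-ratios factors and with only the groups compared fitted, and both without doxycycline replicate 3. Keap1 also lost its call without doxycycline replicate 2 or untreated replicate 1, and with the transcript length trend removed (0.07). Txnrd1 rose in both lines, by 0.76 ± 0.04 in shLinc and 0.56 ± 0.04 in shCtrl. Nfe2l2 was called higher in shLinc (0.11 ± 0.04), but was -0.09 with no rescaling and lost its call in 4 of 6 fits without 1 library.

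From doxycycline to the restored state 7 of 9 members were called in shLinc, 5 higher and 2 lower, where 72.2% of all genes were called, a share near that of the members. In shCtrl 8 of 9 were called, 1 higher and 7 lower, where 73.3% of all genes were. In shLinc Gsr (0.52 ± 0.05), Gclm (0.42 ± 0.05) and Gclc (0.38 ± 0.03) rose and Txnrd1 fell by 0.62. Srxn1 was called lower in shLinc (-0.10 ± 0.04, limma adjusted p = 0.0496), lost its call in 5 of 6 fits without 1 library, and was 0.07 with no rescaling. In shCtrl Txnrd1 fell by 0.41, Prdx1 by 0.36, Gclm by 0.34 and Gclc by 0.26, and Keap1 rose (0.20 ± 0.04). Against the untreated state, 5 of 9 members were called in restored shLinc, 2 higher and 3 lower, where 52.1% of all genes were called, again a share near that of the members. In restored shCtrl 7 of 9 were called, 3 higher and 4 lower, where 49.5% of all genes were. Hmox1 was lower in both, by -0.13 ± 0.04 in shLinc and -0.49 ± 0.04 in shCtrl, and Txnrd1 higher in both, by 0.14 ± 0.04 in shLinc and 0.15 ± 0.04 in shCtrl. Both Txnrd1 calls were lost with no rescaling (0.11 and 0.17), the shCtrl one with only the groups compared fitted, and the shLinc one without untreated replicate 2 or 3 or restored replicate 2. The shLinc count was 2 without untreated replicate 3, and 3 without untreated replicate 2 or restored replicate 2.

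Hepatocyte markers moved with doxycycline in the same lines. Their summed level was 1173 to 1225 untreated, 447 to 457 with doxycycline and 1379 to 1417 restored in shLinc libraries, against 515 to 588, 748 to 769 and 626 to 639 in shCtrl libraries. Fold changes also followed transcript length across 9582 genes, with a Spearman correlation of 0.38 untreated, -0.14 with doxycycline and 0.28 restored for shLinc over shCtrl. The part of either in the members' values was not tested, and removing the length trend kept the doxycycline calls of Gsr, Gclc, Gclm, Srxn1, Prdx1, Hmox1 and Nfe2l2 but not that of Keap1 (-0.08, limma adjusted p = 0.116).

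Over the 18 inducible libraries, the members most alike were Gclc and Gsr (Pearson r of log2 values 0.86), followed by Gsr and Prdx1 (0.70) and Gclc and Gclm (0.69), and Nfe2l2 and Hmox1 ran most opposite (-0.67). These libraries share lines and states, so the values describe the groups. Of all 9877 tested genes, those most like Hmox1 were Bex3 (0.96), Ctsb (0.95) and Sdc4 (0.94), those most like Txnrd1 were Lars (0.99), Tsr1 (0.98) and Kpnb1 (0.98), and those most like Nfe2l2 were Nsmaf (0.93), Ireb2 (0.91) and Snw1 (0.90). Of the 50 other pathway genes, 47 were tested here. With doxycycline 13 were higher and 21 lower in shLinc than in shCtrl, against 18 higher and 23 lower untreated and 16 higher and 20 lower restored, where 52%, 65.5% and 58.1% of all genes were called in these states. The list's median log2 fold change was -0.10, -0.13 and -0.06 in these states, beside -0.02, 0.00 and 0.01 for all genes. Ugdh, which encodes the enzyme that makes UDP-glucuronate, was at 108 in shLinc with doxycycline, against 193 in shCtrl (-0.84 ± 0.03), and the catalase gene Cat (-0.42 ± 0.03), the epoxide hydrolase gene Ephx1 (-0.43 ± 0.03) and Cul3 (-0.70 ± 0.05) were lower as well. Cat was higher in shLinc untreated (0.55 ± 0.03) and restored (0.89 ± 0.03).

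In KO livers on NCD, Nfe2l2 and Gclm were higher than in control livers. These were 2 of 9 tested members, none was lower, and 5.19% of all 9536 tested genes were called (limma). Nfe2l2 was at 22.7, 24.7, 27.3 and 28.5 in KO livers, against 16.2, 16.5, 17.0 and 20.2 in control livers (scaled values, log2 fold change 0.54 ± 0.10, adjusted p = 0.0378). Gclm was at 92.9, 93.2, 106 and 113 in KO livers, against 61.8, 65.7, 71.0 and 84.1 in control livers (0.52 ± 0.11, adjusted p = 0.0441). For both genes each KO liver was above each control liver. Both calls were lost when any 1 of 7 of the 8 livers was left out, with adjusted p values up to 0.0991 for Nfe2l2 and 0.115 for Gclm, and held without control replicate 4; fold changes stayed between 0.50 and 0.61 for Nfe2l2 and between 0.46 and 0.60 for Gclm. Leaving out a liver also took the number of called genes from 495 to between 6 and 1807.

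Gclc and Prdx1 were placed alike but did not pass the test. Gclc was at 73.3, 75.1, 101 and 105 in KO livers, against 49.9, 53.5, 58.2 and 71.3 in control livers (0.59 ± 0.16, limma adjusted p = 0.0582), and Prdx1 at 286, 292, 305 and 331 in KO livers, against 169.9, 170.7, 211 and 270.4 in control livers (0.59 ± 0.15, adjusted p = 0.0553). In both, no KO liver overlapped a control liver. How many of all tested genes were placed without overlap was not counted, so this alone does not set the members apart. Keap1, at 12.2 ± 1.61 in KO livers and 14.4 ± 0.515 in control livers, was lower in each KO liver than in each control liver without passing (-0.23 ± 0.10, adjusted p = 0.160). Hmox1 was at 9.60 ± 1.75 in KO livers and 12.01 ± 1.55 in control livers (adjusted p = 0.165), and Gsr, Txnrd1 and Srxn1 overlapped, with log2 fold changes of 0.00, -0.04 and -0.03, the last 2 being 0.19 with no rescaling. The median of the 9 members was 0.00, and that of all genes -0.01. KO libraries needed larger scale factors (1.01 to 1.17, against 0.841 to 0.972 in controls). With no rescaling the median of all genes moved by 0.22, 4 members were called (Nfe2l2 0.77, Gclm 0.76, Gclc 0.83 and Prdx1 0.83), and 94.9% of the genes called were higher in KO, against 47.7% with rescaling.

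Of the pathway genes, 45 were tested on NCD and 3 were higher in KO livers, with none lower, a share near the 5.19% of all genes called. Gstm1 was at 1055 to 1481 in KO livers, against 625.1 to 825 in control livers (0.80 ± 0.14, limma adjusted p = 0.0348). Cul3, the ligase scaffold that KEAP1 engages, was at 15.2 to 21.4 in KO livers, against 9.51 to 12.8 in control livers (0.65 ± 0.12), and Abcc2 at 121 to 155, against 76.5 to 105 in control livers (0.64 ± 0.12). The list's median was 0.06. Summed hepatocyte markers were 39071 to 52828 in KO livers, against 34102 to 45016 in control livers, and Kupffer cell and macrophage markers 73.0 to 111, against 102 to 201; their part in the result was not tested.

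In KO livers on HFD no member was called of 9 tested, none had an unadjusted p below 0.05 (limma, 0 of 9), and 0.0648% of all 6176 tested genes were called. Gclm was at 25.9 to 36.5 in KO livers (median 31.6), against 25.3 to 34.6 in control livers (median 29.2), and Nfe2l2 at 7.85 to 14.9 in KO livers (median 11.6), against 9.20 to 13.6 in control livers (median 10.5). In each of the 9 members the groups overlapped, and except for Srxn1 the log2 fold changes ran from -0.08 ± 0.07 for Gsr to 0.25 ± 0.20 for Hmox1. Srxn1 was at 95.0 in KO replicate 4 and 20.3 in KO replicate 2, and at 4.69 to 5.96 in the other 4 KO livers, against 4.57 to 8.45 in control livers. Its log2 fold change of 0.84 ± 0.68 became 0.25 without KO replicate 4, and neither passed the test. KO replicate 6, in which 14 rows held 89.8% of the values, did not change the count of 0 when it was left out. Of 42 tested pathway genes none was called either, and their median was -0.03, beside 0.01 for all genes. Values of the NCD and HFD tables were scaled separately, and the effects on the 2 diets were not tested against each other.

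**Figure D4:**
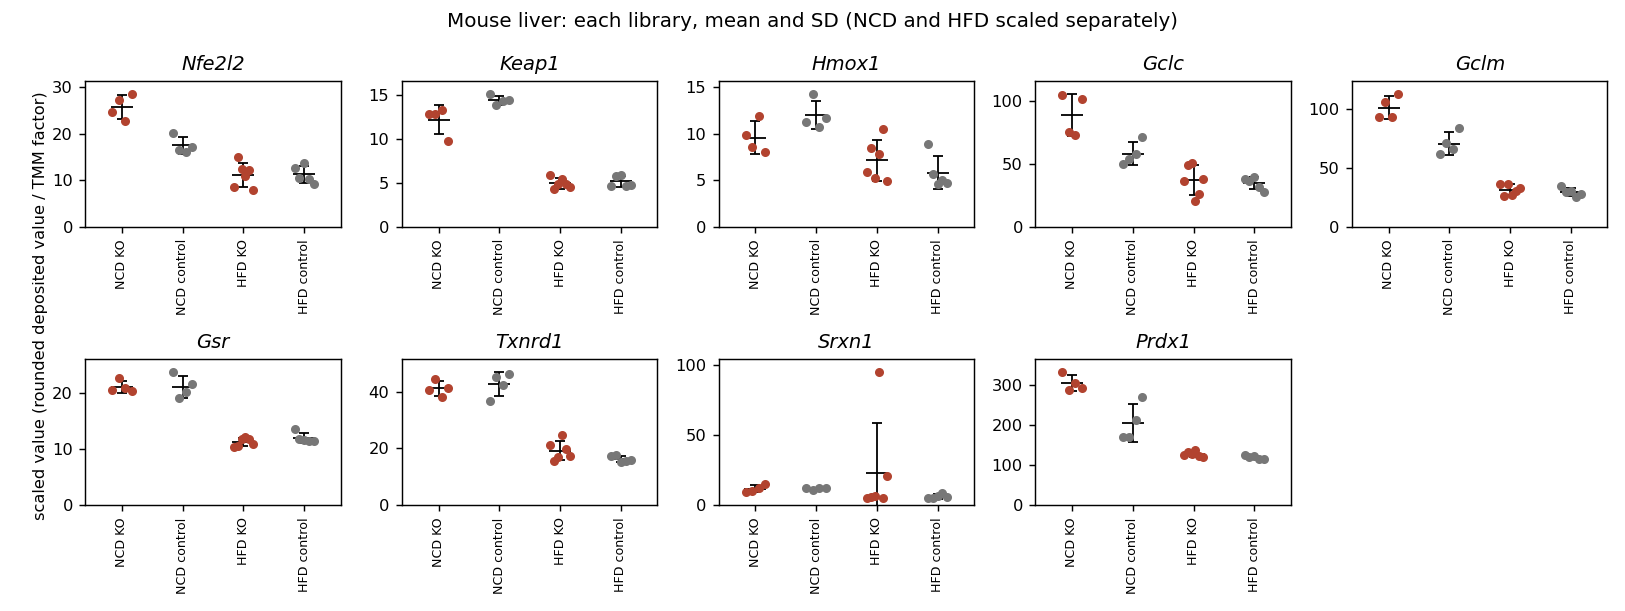
Scaled values of 9 members in KO and control livers on NCD and on HFD, on a linear axis from 0; points are livers and bars give the mean and SD, and the tables of the 2 diets were scaled separately. On NCD each KO liver lies above each control liver for Nfe2l2, Gclc, Gclm and Prdx1, of which Gclc and Prdx1 did not pass the test. The share of all genes without overlap was not counted. On HFD the groups overlap, with Srxn1 at 95.0 in 1 KO liver, whose group's error bar is cut at 0.

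Set side by side, Gclm had log2 fold changes of -2.70 under shFalcor, -0.69 under shZC3H11A, -0.30 in shLinc with doxycycline, 0.52 in NCD KO livers and 0.09 in HFD KO livers, each against its own control. Gclc had -1.34, -0.36, -0.52, 0.59 and 0.03 in the same order, and Hmox1 1.498, -1.13, -0.26, -0.30 and 0.25. The conventional values come from edgeR on counts and the others from limma on log2(value + 1), so sizes are not on 1 scale. Differences between tables were not tested.

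**Figure D5:**
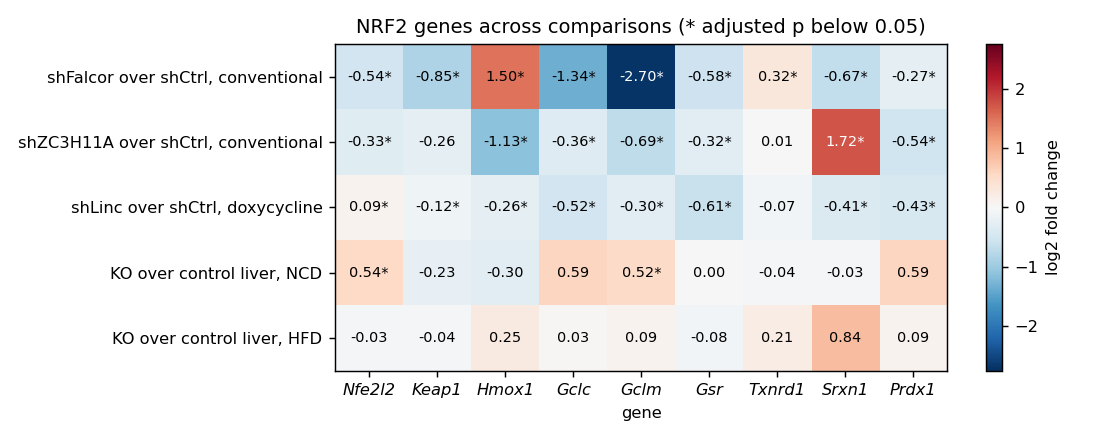
Log2 fold changes of 9 members (columns) in 5 comparisons (rows), each the knockdown or KO group over its control; colour gives sign and size, numbers give the value and an asterisk an adjusted p below 0.05. The conventional rows are edgeR values and the others limma values on the log2(value + 1) scale; Gclm runs from -2.70 under shFalcor to 0.52 in NCD KO livers.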

How the data were processed

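Total RNA was depleted of rRNA and kept strand information, as the labels' protocols say. Of upstream tools, kallisto and DESeq2 are named per the submitters' processing notes, with the build mm10, and neither versions nor roles. The conventional table holds counts deposited by the authors as whole numbers per gene. The other 3 tables hold deposited values treated as a score, since they are whole numbers of an unstated unit whose columns sum to 833910 to 975752, and their depth is unknown. The count model planned for them was replaced by limma.

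Counts were tested with edgeR 4.0.16 (filterByExpr, TMM scaling, robust quasi-likelihood test), and CPM are counts scaled by TMM. Score values were divided by TMM factors and log2(value + 1) was fitted with limma 3.58.1 (trend, robust) in R 4.3.3, for rows with a mean of at least 3. All groups of a table shared a fit, p-values were Benjamini-Hochberg adjusted over all genes of a comparison, and genes below 0.05 were called, in 17 comparisons. Groups came from sample titles and characteristics; 4 liver control columns carry no usable replicate number and are named by column. The number of sample columns not used was 0. Overlap between groups was looked at for the listed genes only, so no share over all genes stands beside it.

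The members and the list of 50 pathway genes were chosen with earlier results of these data known. All members were named, with up to 4 pathway genes per comparison, those called with the smallest p. Osgin1 and Sqstm1 on HFD were named outside this rule. Gene positions are from GENCODE M21 (mm10) and promoter windows from RefSeq (GRCm38.p6). Models were tested on simulated data. Alternatives were other scalings, pseudocounts, filters and fits, DESeq2 1.42.0, leaving out each library, and, added after the data were seen, removing the transcript length trend.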

Additional observations from a re-analysis of the deposited data

Results flagged for a closer look

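Of 40 combinations of a member and a liver group, 6 held a liver far from the rest, where chance alone gives about 1 in 20. In KO livers on HFD these were Srxn1 in replicate 4 (95.0, others 4.69 to 20.3) and Nqo1 in replicate 6 (0, others 0.745 to 0.981). In KO livers on NCD it was Keap1 in replicate 4 (9.79, others 12.8 to 13.3). In control livers they were Hmox1 in HFD replicate 3 (8.87, others 4.60 to 5.71), Gsr in HFD column Ctrl-1 (13.5, others 11.4 to 11.7) and Nqo1 in NCD column Ctrl-2 (1.19, others 2.06 to 2.15). The Nqo1 values are rounded values of 0 to 3, so the gap is that of a single unit.

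The hairpin difference changed between states in the inducible lines, by the limma test of the difference itself. Doxycycline minus untreated, it was -0.72 for Gclm, -0.67 for Gclc, -0.65 for Gsr, -0.49 for Srxn1, -0.28 for Prdx1, -0.14 for Nfe2l2 and 0.20 for Txnrd1. Doxycycline minus restored, it was -0.76 for Gclm, -0.70 for Gsr, -0.65 for Gclc, -0.47 for Prdx1, -0.24 for Hmox1, -0.17 for Nfe2l2, -0.17 for Srxn1 and 0.21 for Txnrd1, of which Txnrd1 was not called with no rescaling (0.10) and Srxn1 not with median-of-ratios factors (-0.14). Restored minus untreated, it was 0.36 for Hmox1, -0.32 for Srxn1 and -0.19 for Keap1.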

How the results depend on the processing

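The counts of called members under both conventional knockdowns, and in the inducible hairpin comparisons, stayed within 1.5 times of the reported ones under each setting run. Exceptions elsewhere were restored against untreated shCtrl (4 with only the groups compared fitted) and shLinc (2 to 4 without 1 library), and KO against control livers on NCD (1 with no filter on low values, 4 with no rescaling, 0 to 4 without 1 liver). A steady count can hide a change of members. With no rescaling the restored hairpin comparison lost the lower calls of Keap1, Txnrd1 and Srxn1. Hmox1 (0.12), Gsr (0.23) and Prdx1 (0.17) were called higher there instead. The untreated comparison lost the lower calls of Txnrd1 and Prdx1, and Keap1 (0.19), Gsr (0.23) and Srxn1 (0.25) were called higher. With no rescaling between libraries 5 member values that were called in either fit changed sign: Prdx1 untreated (0.0211) and Hmox1 restored (0.12) for shLinc over shCtrl, Nfe2l2 (-0.0877) for doxycycline over untreated, and Nfe2l2 (0.11) and Srxn1 (0.0700) for restored over doxycycline in shLinc. With the transcript length trend removed Hmox1 restored (0.13) and Gclm under doxycycline in shCtrl (-0.0698) did, by the same criterion; the cause was not tested. No rescaling also shifted the median of all genes by 0.17 for the untreated hairpin comparison, where 67.6% of calls were then higher against 48.0%, and by -0.18 for doxycycline over untreated shLinc (35.9% against 50.6%). The other shifts over 0.1 were 0.13 for the restored hairpin comparison (67.2% higher against 49.1%), 0.16 for restored over doxycycline in shLinc (62.6% against 48.0%), -0.15 and -0.11 for the changes of the hairpin difference from untreated and restored to doxycycline (36.0% against 49.1% and 36.7% against 47.1%), and 0.22 on NCD (94.9% against 47.7%, and 60.9% with median-of-ratios factors). On NCD 495 genes were called, 1746 with no rescaling; on HFD 4 (3 higher), 29 with no rescaling (13 higher), 1 with median-of-ratios factors (0 higher) and 1 to 14 without 1 liver.

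Same-numbered replicates did not deviate together (correlations from -0.14 to 0.14, over 0.1 in 5 of 45 inducible and 1 of 9 conventional pairs). All 27 conventional member calls kept their side of the threshold with DESeq2. With a replicate block 132 of 135 member values kept their call, and 7 members were called under doxycycline instead of 8. Livers have no numbers that pair them.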

Other observations

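The KO liver on HFD with the high Srxn1 value, replicate 4, was also the highest KO liver for Osgin1 and Sqstm1, 2 pathway genes picked from the list of 50. These were looked at after its Srxn1 value was seen. How many of the other pathway genes were highest in this liver was not counted, so these 2 alone do not set it apart. Osgin1, which encodes an oxidative stress-induced growth inhibitor, was at 71.9 in that liver and at 20.6 to 49.2 in the other 5 KO livers, against 14.0 to 32.2 in control livers (scaled values). Sqstm1, which encodes the KEAP1-binding autophagy receptor p62, was at 90.2 in that liver and at 65.7 to 72.0 in the other 5 KO livers, against 54.04 to 66.8 in control livers. In the same liver Hmox1 (10.6), Txnrd1 (24.9) and Prdx1 (136) were the highest of the 6 KO livers. Gclm (25.9) was the lowest, and Gsr (10.6) was above replicate 3 only (10.4). Nfe2l2 (12.5) and Gclc (48.9) were exceeded by replicate 3 (14.9 and 50.7). Keap1 (4.80) lay inside the range of the KO livers (4.23 to 5.89). These values describe 1 liver and were not tested.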
